A study of Mus musculus with 9 samples.

Results

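Collagens, laminins and the glycoproteins that bind them make up the extracellular matrix, and their genes were followed here through 3 stages of mouse ovarian surface epithelial (MOSE) cells in culture. The set was a fixed list of 46 genes, chosen by name for what their proteins do, with earlier results of these data known. Its counts therefore describe the list and are not an independent test. It held 6 fibrillar collagens, 5 other collagens, 15 basement membrane genes, 11 genes of elastic fibres and cross-linking, and 9 adhesive and matricellular glycoproteins. A probe set that names the gene alone was present for 43 of them (92 probe sets), and 30 of them (55 probe sets) had a signal over 500 on at least 1 array and were tested among 7952 genes. In MOSE-L cells 16 of the 30 were called lower than in MOSE-E cells, where 7.43% of all tested genes were, with log2 changes of -1.25 to -6.98, among them collagen I, the collagen IV genes Col4a1 and Col4a2, collagens V, VIII and XI, both nidogens, fibulins, tenascin C and thrombospondin 1. Collagen III, collagen VI, perlecan, Sparc and the collagen IV genes Col4a5 and Col4a6 were not called lower at that stage.

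MOSE cells are ovarian surface epithelial cells of C57BL6 mice that transformed spontaneously during long culture, so no transgene or drug separates the stages. Early cells, labelled non-malignant and called MOSE-E, were taken at passages 13, 14 and 15. Intermediate cells (MOSE-I) were taken at passages 63, 71 and 73, and late cells (MOSE-L), labelled malignant, at passages 136, 142 and 143. All stages shared the same high-glucose medium with fetal bovine serum, antibiotics, insulin, transferrin and selenium. Total RNA of each passage went onto 1 Affymetrix whole-genome mouse array, 9 in all, and the 3 arrays of a stage are labelled biological replicates. The stages belong to 1 series of cells, so the p-values measure the spread between cultures of that series, which may be technical, and stage and time in culture cannot be told apart.

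Fibrillar collagens are helices of matching or differing chains that assemble outside the cell into the ropes of connective tissue, and lysyl oxidases cross-link them. Epithelial cells rest on a basement membrane, a sheet of laminin and collagen IV networks that nidogens and the proteoglycan perlecan tie together. The ovarian surface epithelium lies on such a sheet, with collagen-rich connective tissue under it, and its cells are known to make matrix of both kinds in culture.

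Between 10075 and 11104 probe sets of an array had signals over 500, and array medians lay at 93.2 to 130.0. Of the 11 markers of ovarian surface epithelium and mesothelium, 11 exceeded 500 on at least 1 array, and their summed signal was 73042 to 77283 on the MOSE-E, 52976 to 70071 on the MOSE-I and 57590 to 75203 on the MOSE-L arrays. Of the 11, 5 were called lower and 0 higher in MOSE-L than MOSE-E cells, against 7.43% and 8.11% of all genes. Lower were the keratin genes Krt7, Krt8 and Krt19, E-cadherin (Cdh1) and Lrrn4, with log2 changes of -4.28, -1.47, -1.11, -3.00 and -2.23 (adjusted p = 0.000195, 0.00526, 0.0139, 0.00126 and 0.00621). Cdh1 exceeded 500 on MOSE-E arrays alone and so had to be lower. Upk3b, Wt1 and Gpm6a were higher on every MOSE-L array than on every MOSE-E array but not called (log2 changes 0.59, 0.94 and 0.98, adjusted p = 0.262, 0.0318 and 0.0209). Between MOSE-I and MOSE-E cells 5 of the 11 were called lower (Krt7, Msln, Lrrn4, Cdh1 and Muc16) and 0 higher, against 3.51% and 2.28% of all genes. Muc16 exceeded 500 on MOSE-E arrays alone, which favours a lower value at MOSE-I. From MOSE-I to MOSE-L 3 were called higher (Msln, Wt1 and Gpm6a) and 1 lower (Krt8), against 7.33% and 5.95%. None of the 5 endothelial markers and none of the granulosa markers exceeded 500, and 1 of 6 macrophage and leukocyte markers did. Smooth muscle and myofibroblast markers fell alongside the matrix genes: 4 of 6 were measured and 4 were called lower in MOSE-L than MOSE-E cells, against 7.43% of all genes. Of these, Cnn1 and Actg2 exceeded 500 on MOSE-E arrays alone and so had to be lower in the other stages. The summed signal was 33109 to 94258 on the MOSE-E, 6868 to 30080.4 on the MOSE-I and 437 to 1580.3 on the MOSE-L arrays. The fibroblast list, of which 5 of 8 were measured, summed to 5468 to 8060 (MOSE-E), 9996 to 22523 (MOSE-I) and 20101 to 28601 (MOSE-L). At MOSE-L most of that sum was decorin (Dcn, log2 change 2.19 against MOSE-E, adjusted p = 0.0108), while Cd34 was called lower at MOSE-L (-4.06, adjusted p = 0.0198) and the median change of the 5 genes was -0.27. At MOSE-I the median change was 1.74, and 2 of the 5 were called higher, against 2.28% of all genes. These were Tcf21 (2.55, adjusted p = 0.0105) and Pdgfrb (1.74, adjusted p = 0.0177), both called lower from MOSE-I to MOSE-L (-3.55 and -2.01). They exceeded 500 on MOSE-I arrays alone and so had to be higher there. On MOSE-I replicate 1, Cd34 gave 5100 of the summed 9996. The 3′ to 5′ ratio of the beta-actin control probe sets was 1.12 to 1.25 on the MOSE-E, 1.31 to 1.38 on the MOSE-I and 1.34 to 1.83 on the MOSE-L arrays. That of the Gapdh control probe sets was 0.744 to 0.773, 0.773 to 0.810 and 0.727 to 0.739, lowest on the MOSE-L arrays. The part of RNA quality and of these markers in the changes below was not tested. With RNA of whole cultures, fewer cells of a type and less RNA per cell cannot be told apart.

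Sequences before the gene starts are shown for the members with the largest falls of the fibrillar, basement membrane and matricellular groups. Others not called lower at MOSE-L are added, so that the 2 kinds can be read side by side. Col11a1 and Col8a1 fell more than Tnc (log2 changes -4.85 and -4.83 against -4.65 at MOSE-L) and are not shown. They come from RefSeq, build GRCm38.p6, and run 5′ to 3′ on the gene's strand, ending before the range that the table gives for the gene, with 250 bases each (201 for Col4a5 and 231 for Col4a6, whose ranges start farther upstream). Capitals mark the letters of 3 motifs, each searched on both strands without overlaps between motifs. These were TATAAA, called a TATA box here, the CCAAT box, which is named for its letters, and a GC box with the letters GGCGGG. Col1a2 (chr6:4505368-4505617, + strand), Nid1 (chr13:13437352-13437601, + strand) and Tnc (chr4:64047016-64047265, - strand, the farther upstream of 2 starts) had the largest falls of their groups. Col3a1 (chr1:45311288-45311537, + strand) was a bright fibrillar collagen without a call at MOSE-L. Col4a5 (chrX:141475169-141475369, + strand) and Col4a6 (chrX:141474096-141474326, - strand) are neighbours on opposite strands whose signals were lowest in MOSE-I cells.
Col1a2: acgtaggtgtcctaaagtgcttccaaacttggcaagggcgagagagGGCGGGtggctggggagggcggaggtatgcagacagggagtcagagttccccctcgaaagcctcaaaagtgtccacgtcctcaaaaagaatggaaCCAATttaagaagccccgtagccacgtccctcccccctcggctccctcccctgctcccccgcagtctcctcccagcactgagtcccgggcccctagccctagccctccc
Col3a1: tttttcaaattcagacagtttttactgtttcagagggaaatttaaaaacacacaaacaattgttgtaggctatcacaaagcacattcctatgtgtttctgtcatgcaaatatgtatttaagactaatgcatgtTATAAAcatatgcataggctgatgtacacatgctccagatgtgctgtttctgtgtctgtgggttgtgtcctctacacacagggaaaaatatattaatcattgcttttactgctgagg
Nid1: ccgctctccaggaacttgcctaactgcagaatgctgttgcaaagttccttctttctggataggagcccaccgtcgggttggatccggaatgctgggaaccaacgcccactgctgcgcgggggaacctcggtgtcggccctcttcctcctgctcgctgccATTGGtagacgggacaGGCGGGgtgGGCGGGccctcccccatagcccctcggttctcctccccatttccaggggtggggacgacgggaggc
Tnc: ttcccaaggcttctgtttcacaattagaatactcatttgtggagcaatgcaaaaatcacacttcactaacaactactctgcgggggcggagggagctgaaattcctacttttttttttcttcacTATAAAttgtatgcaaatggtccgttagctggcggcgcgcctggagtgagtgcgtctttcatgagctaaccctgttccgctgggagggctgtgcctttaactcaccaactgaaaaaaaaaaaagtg
Col4a5: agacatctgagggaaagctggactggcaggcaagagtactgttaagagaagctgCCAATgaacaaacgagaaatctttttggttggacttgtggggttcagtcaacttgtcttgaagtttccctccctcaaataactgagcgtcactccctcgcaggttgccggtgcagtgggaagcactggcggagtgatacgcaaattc
Col4a6: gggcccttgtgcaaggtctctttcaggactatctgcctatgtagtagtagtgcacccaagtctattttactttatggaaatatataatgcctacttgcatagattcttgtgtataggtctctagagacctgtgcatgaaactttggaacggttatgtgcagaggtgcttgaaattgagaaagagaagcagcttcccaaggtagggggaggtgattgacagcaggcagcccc
Col1a2 had 1 CCAAT box and 1 GC box in this window, Nid1 had 1 CCAAT box and 2 GC boxes, and Tnc and Col3a1 each had 1 TATA box. Col4a5 had 1 CCAAT box, and no capitals fell in the Col4a6 window. Over 32851 promoters of 250 bases in the table, 12.4% held a TATA box, 33.8% a CCAAT box and 32.5% a GC box. The 37 promoters that the table holds for 30 of the 46 listed genes had them in 16.2%, 29.7% and 43.2% of cases. The CArG box of smooth muscle genes lay in 1.5% of all promoters and in 0 of these 37. The starts of Col4a5 and Col4a6 lie 1342 bases apart, and those of Col4a1 and Col4a2, also on opposite strands, overlap by 22 bases, so that both pairs stand head to head. A motif match describes the letters only and was not tested as a binding site.

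Changes are given on the scale log2(signal + 50) unless a ratio of mean signals is named, and they were called in limma where the adjusted p was 0.05 or less and the change 1 or more in either direction. Between MOSE-L and MOSE-E cells, 16 of the 30 measured matrix genes were called lower and 0 higher, against 7.43% and 8.11% of all 7952 genes. At an unadjusted p under 0.05, 17 were lower and 2 higher, counts given without a share over all genes. Between MOSE-I and MOSE-E cells 15 were called lower and 1 higher, against 3.51% and 2.28% of all genes. Between MOSE-L and MOSE-I cells the calls split, with 7 lower and 4 higher against 5.95% and 7.33% of all genes. The median change of the 30 genes was -1.46 from MOSE-E to MOSE-I, -0.15 from MOSE-I to MOSE-L and -1.29 from MOSE-E to MOSE-L, where the medians over all genes were 0.03, -0.02 and 0.03.

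**Figure D1:**
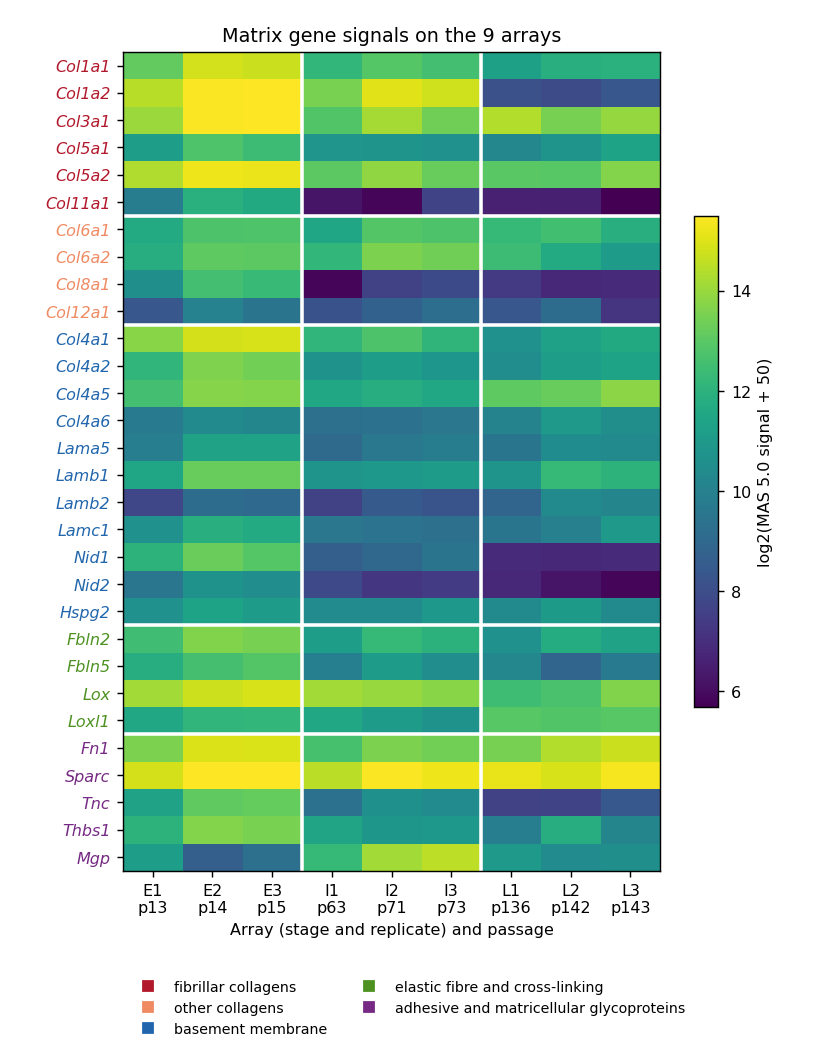
Signals of the 30 measured matrix genes (rows, grouped by role and named in the colour of the group) on the 9 arrays (columns, by stage, replicate and passage), as log2 of the MAS 5.0 signal plus 50. Col1a2, Nid1, Nid2, Tnc, Col8a1 and Col11a1 are dark on all MOSE-L arrays, Sparc is bright on all 9, and MOSE-E replicate 1 is darker than the other MOSE-E arrays in most rows.

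The first 2 comparisons share the MOSE-E arrays and are given side by side rather than as support for each other. Both called 13 genes lower: Col1a1, Col5a2, Col11a1, Col8a1, Col4a1, Col4a2, Lamc1, Nid1, Nid2, Fbln2, Fbln5, Tnc and Thbs1. Another 3 (Col1a2, Col5a1 and Lox) were called lower at MOSE-L but not at MOSE-I, 2 (Col4a5 and Lamb1) at MOSE-I but not at MOSE-L, and, on their brightest probe sets, 8 (Col3a1, Col6a1, Col6a2, Col12a1, Lama5, Hspg2, Fn1 and Sparc) in no comparison. Col11a1, Col8a1 and Nid2 passed the filter through MOSE-E arrays alone and so had to be lower in the other stages. Of the 23 genes with a signal over 500 in every stage, 10 were called lower in MOSE-L and 10 in MOSE-I cells. The share called among all genes with such signals was not computed, so these counts have no background to be read against. Signals were lower on every MOSE-L array than on every MOSE-E array for 14 of the 30 genes, against 21.7% of all genes.

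Between MOSE-L and MOSE-E cells 14 of 16 calls were kept when each of the 9 arrays was left out in turn, and those of Col5a1 and Lamc1 were not. Between MOSE-I and MOSE-E cells 3 of 16 calls (Col11a1, Col8a1 and Nid1) were kept in every such fit. Of these, Col11a1 and Col8a1 had to be lower through the filter, so their kept calls add no support. The same holds for Col11a1, Col8a1 and Nid2 among the calls kept between MOSE-L and MOSE-E cells. The count of genes lower at MOSE-I than at MOSE-E dropped to 3 when MOSE-E replicate 3 was left out. It dropped to 6 when either MOSE-E replicate 2 or MOSE-I replicate 3 was. Between MOSE-L and MOSE-I cells 6 of 11 calls (Col1a2, Nid1, Tnc, Mgp, Col4a5 and Loxl1) were kept, with 4 lower genes without MOSE-I replicate 2, MOSE-I replicate 3 or MOSE-L replicate 2, and 2 higher genes without MOSE-L replicate 2.

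**Figure D2:**
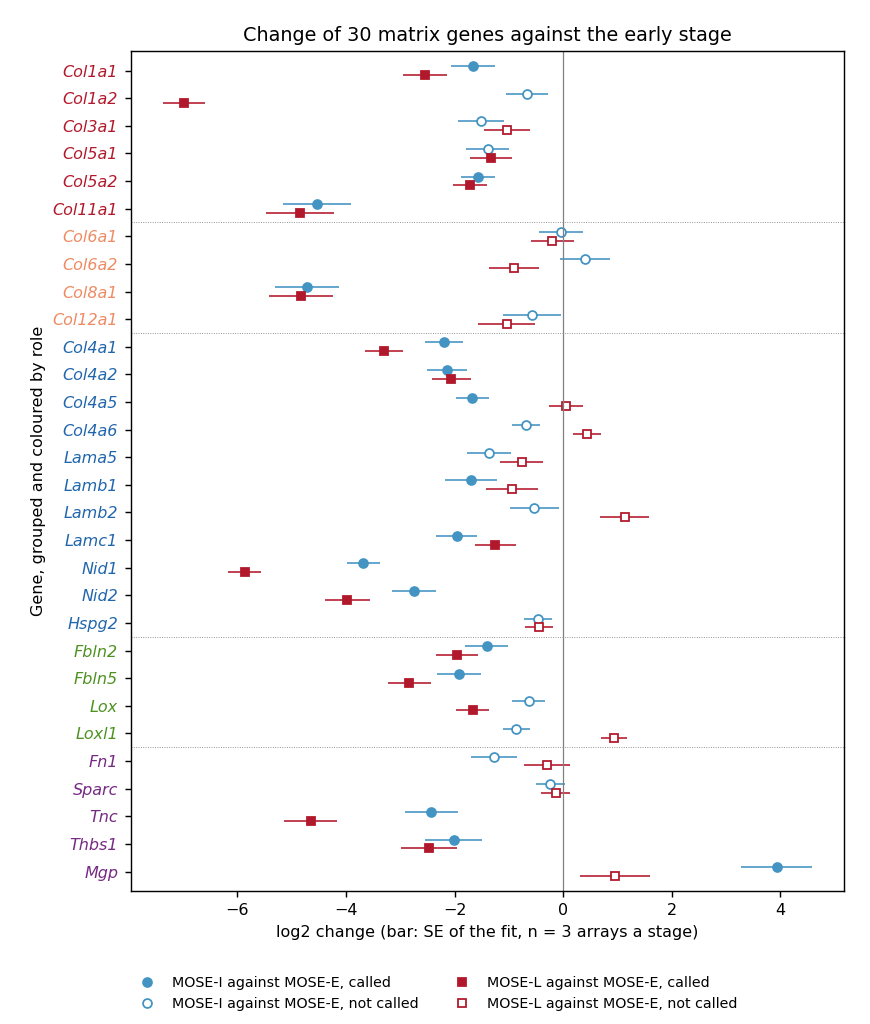
Change of each of the 30 measured matrix genes against MOSE-E on the scale log2(signal + 50), at MOSE-I (circles) and MOSE-L (squares), with the standard error of the fit and n = 3 arrays a stage. Filled symbols are called changes, and the MOSE-E arrays serve as reference for circles and squares alike. Col1a2 lies near 0 at MOSE-I and at -6.98 at MOSE-L, and Mgp at 3.93 at MOSE-I is the 1 filled symbol right of 0.

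Among the 6 fibrillar collagens, all measured, 5 were called lower in MOSE-L and 3 in MOSE-I than in MOSE-E cells, against 7.43% and 3.51% of all genes. Col11a1, counted in both, had to be lower through the filter. Col1a2, the second chain of collagen I, gave signals of 22129, 44516 and 45780.0 on the MOSE-E arrays, 11843, 33884 and 28098 on the MOSE-I arrays and 231, 195 and 277 on the MOSE-L arrays. The MOSE-L signals lay under all others by far, and the MOSE-I arrays overlapped the MOSE-E arrays. The fall from MOSE-E to MOSE-L was -6.98 on the log2 scale (SE 0.39, adjusted p = 3.25e-06), a 160.1-fold ratio of mean signals, and the change from MOSE-E to MOSE-I was -0.67 on the log2 scale (SE 0.39, adjusted p = 0.276), not called. The second probe set of the gene gave -7.79 and the third -3.04 for MOSE-L against MOSE-E, both called, and the third was also called at MOSE-I (-2.08) but not between MOSE-I and MOSE-L (-0.95).

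Col1a1 codes for the main chain of collagen I, which pairs with the Col1a2 chain. It gave signals of 9034, 29046 and 26891 on the MOSE-E arrays, 4645, 7752 and 6086 on the MOSE-I arrays and 2396, 3657 and 3937 on the MOSE-L arrays. On this probe set the stages did not overlap and were ordered from MOSE-E down to MOSE-L. Against MOSE-E the change was -1.66 on the log2 scale (SE 0.41, adjusted p = 0.0319) at MOSE-I and -2.54 on the log2 scale (SE 0.41, adjusted p = 0.00189) at MOSE-L. The MOSE-I call was lost in 8 of 23 alternative settings. Between the later stages no change was called (log2 change -0.88, SE 0.41, adjusted p = 0.124). The second Col1a1 probe set was called lower than MOSE-E in both later stages (-1.58 and -2.16), but there the MOSE-I and MOSE-L arrays overlapped (-0.58, adjusted p = 0.187). At MOSE-L the mean Col1a1 signal was thus 6.50-fold lower than at MOSE-E and the Col1a2 signal 160.1-fold lower.

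Col3a1, the single chain of collagen III, was not called in any comparison on its brightest probe set. It gave signals of 16699.8, 43940.3 and 45720.2 on the MOSE-E arrays, 7235, 18624 and 10577 on the MOSE-I arrays and 21028, 11583 and 15864 on the MOSE-L arrays. MOSE-L cells overlapped MOSE-E cells through the low MOSE-E replicate 1, and neither change passed (log2 change -1.04, SE 0.43, adjusted p = 0.0969 at MOSE-L, log2 change -1.51, SE 0.43, adjusted p = 0.0507 at MOSE-I). Without MOSE-E replicate 1 the MOSE-L change was called, and the MOSE-I change was called in 9 alternative settings. The second Col3a1 probe set was called lower at MOSE-I (-2.31, adjusted p = 0.0354).

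Collagen V, which starts and limits collagen I fibrils, was measured through both of its listed chains. Col5a2 gave signals of 20481, 38468 and 38339.9 on the MOSE-E arrays, 8219.7, 14856 and 9386 on the MOSE-I arrays and 8098, 7961 and 13029.5 on the MOSE-L arrays. All MOSE-I and MOSE-L arrays lay under all MOSE-E arrays, with changes of -1.57 on the log2 scale (SE 0.31, adjusted p = 0.015) at MOSE-I and -1.72 on the log2 scale (SE 0.31, adjusted p = 0.0034) at MOSE-L. Col5a1 averaged 4919.9 ± 2488, 1662 ± 87.6 and 1828 ± 753 (mean ± SD, n = 3) at the early, intermediate and late stage, and its change was called at MOSE-L (log2 change -1.33, SE 0.40, adjusted p = 0.0318) but not at MOSE-I (log2 change -1.39, SE 0.40, adjusted p = 0.0515). That change passed in 8 alternative settings, and the second of 3 Col5a1 probe sets was called at MOSE-I (-1.64, adjusted p = 0.0448).

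Col11a1, a minor chain that joins collagen V in mixed fibrils, gave signals of 848, 3830.0 and 3136 on the MOSE-E arrays, 25.8, 6.46 and 157 on the MOSE-I arrays and 46.1, 43.9 and 1.73 on the MOSE-L arrays. It was near the bottom of the scale on all arrays after MOSE-E, where the added 50 understates the change. The changes were -4.54 on the log2 scale (SE 0.62, adjusted p = 0.00348) at MOSE-I and -4.85 on the log2 scale (SE 0.62, adjusted p = 0.000489) at MOSE-L, with no call between the later stages (log2 change -0.31, adjusted p = 0.731).

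The other collagens, 4 of 5 measured, held 1 called gene, Col8a1, against 7.43% of all genes called lower at MOSE-L and 3.51% at MOSE-I. It had to be lower through the filter. Col8a1, a short-chain collagen of subendothelial and corneal sheets, gave signals of 1481, 6088 and 5127 on the MOSE-E arrays, 8.30, 143 and 188 on the MOSE-I arrays and 115, 59.9 and 67.1 on the MOSE-L arrays. It was low on every array after the early stage, with a change of -4.72 on the log2 scale (SE 0.59, adjusted p = 0.00225) at MOSE-I and -4.83 on the log2 scale (SE 0.59, adjusted p = 0.00039) at MOSE-L. Collagen VI, which forms beaded filaments between basement membrane and stroma, was not called in any comparison: Col6a1 averaged 5775 ± 2179, 5765 ± 2582 and 4820.1 ± 1043, and Col6a2 6783 ± 2862, 9034 ± 3956 and 3590.0 ± 1694 at the early, intermediate and late stage. Their changes at MOSE-L were -0.20 on the log2 scale (SE 0.40, adjusted p = 0.743) and -0.90 on the log2 scale (SE 0.47, adjusted p = 0.172). From MOSE-I to MOSE-L the Col6a2 change was -1.31 on the log2 scale (SE 0.47, adjusted p = 0.0581), which was called in 3 alternative settings. With these standard errors a missed threshold does not show that the levels were equal. Col12a1, which decorates fibril surfaces, was dim, with signals of 99.3 to 995, and not called.

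In the basement membrane group 11 of 15 genes were measured, and 5 were called lower at MOSE-L and 7 at MOSE-I, against 7.43% and 3.51% of all genes. Nid2, counted in both, had to be lower through the filter. Between MOSE-L and MOSE-I 3 were called higher (Col4a5, Col4a6 and Lamb2) and 3 lower (Col4a1, Nid1 and Nid2), against 7.33% and 5.95% of all genes, and of these the calls of Col4a5 and Nid1 were kept whichever array was left out. The median change of the 11 genes was -1.70 at MOSE-I and -0.95 at MOSE-L, each against MOSE-E.

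Nid1, nidogen 1, which links the laminin and collagen IV networks, gave signals of 4101, 9706 and 7663 on the MOSE-E arrays, 359.9, 465 and 654 on the MOSE-I arrays and 66.8, 62.2 and 70.1 on the MOSE-L arrays. The stages were fully separate and fell at both steps. The changes were -3.68 on the log2 scale (SE 0.30, adjusted p = 0.000327) at MOSE-I, -5.87 on the log2 scale (SE 0.30, adjusted p = 1.3e-06) at MOSE-L and -2.19 on the log2 scale (SE 0.30, adjusted p = 0.0011) between the later stages. All MOSE-L signals of Nid1 lay under the medians of their arrays, so that no ratio of signals is given. Nid2, its paralogue nidogen 2, gave signals of 703, 1649 and 1403 on the MOSE-E arrays, 181, 103 and 124 on the MOSE-I arrays and 61.9, 25.1 and 7.06 on the MOSE-L arrays. It followed the same order of stages, with changes of -2.75 on the log2 scale (SE 0.41, adjusted p = 0.00481) at MOSE-I and -3.97 on the log2 scale (SE 0.41, adjusted p = 0.000127) at MOSE-L, and 2 of its 3 MOSE-L signals lay under the added 50.

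Col4a1 and Col4a2 code for the 2 chains of the collagen IV molecule found in nearly all basement membranes. Col4a1 gave signals of 13914, 30110.0 and 30768 on the MOSE-E arrays, 4479.6, 6859 and 4339 on the MOSE-I arrays and 1562, 2510.2 and 3186 on the MOSE-L arrays. Col4a2 gave signals of 4513, 12418 and 10927 on the MOSE-E arrays, 1628, 2318 and 1775 on the MOSE-I arrays and 1387, 2225 and 2586 on the MOSE-L arrays. Both were lower on every later array than on every MOSE-E array. Col4a1 fell again between the later stages (log2 change -1.12, SE 0.35, adjusted p = 0.0387), a call that was lost in several fits without 1 array and not made on its second probe set (-0.72), and Col4a2 did not (log2 change 0.08, SE 0.37, adjusted p = 0.882). Against MOSE-E, the changes of Col4a1 were -2.19 on the log2 scale (SE 0.35, adjusted p = 0.00724) at MOSE-I and -3.31 on the log2 scale (SE 0.35, adjusted p = 0.000173) at MOSE-L, and those of Col4a2 -2.14 on the log2 scale (SE 0.37, adjusted p = 0.00886) and -2.06 on the log2 scale (SE 0.37, adjusted p = 0.00315).

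Col4a5 and Col4a6, the chains of a second collagen IV network of restricted tissues, took another course. Col4a5 gave signals of 5952, 13320.5 and 13162 on the MOSE-E arrays, 2989, 3567 and 2930.0 on the MOSE-I arrays and 8637, 9413 and 14179 on the MOSE-L arrays. All MOSE-I arrays lay under both other stages, and the MOSE-L arrays covered the same range as the MOSE-E arrays. The changes were -1.67 on the log2 scale (SE 0.31, adjusted p = 0.0119) at MOSE-I, 1.72 on the log2 scale (SE 0.31, adjusted p = 0.00478) from MOSE-I to MOSE-L and 0.05 on the log2 scale (SE 0.31, adjusted p = 0.928) from MOSE-E to MOSE-L. The second Col4a5 probe set was called in the same 2 comparisons (-1.75 and 1.41) and gave -0.34 for MOSE-L against MOSE-E. Col4a6 gave signals of 789.5, 1302 and 1125 on the MOSE-E arrays, 592, 599 and 722 on the MOSE-I arrays and 1039, 2011 and 1442 on the MOSE-L arrays. Its MOSE-I arrays were again the lowest, with a called rise from MOSE-I to MOSE-L (log2 change 1.13, SE 0.26, adjusted p = 0.0122) and no call at MOSE-I (log2 change -0.68, SE 0.26, adjusted p = 0.104). The second Col4a6 probe set was called lower at MOSE-I (-1.37, adjusted p = 0.0323) and higher from MOSE-I to MOSE-L (1.77).

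**Figure D3:**
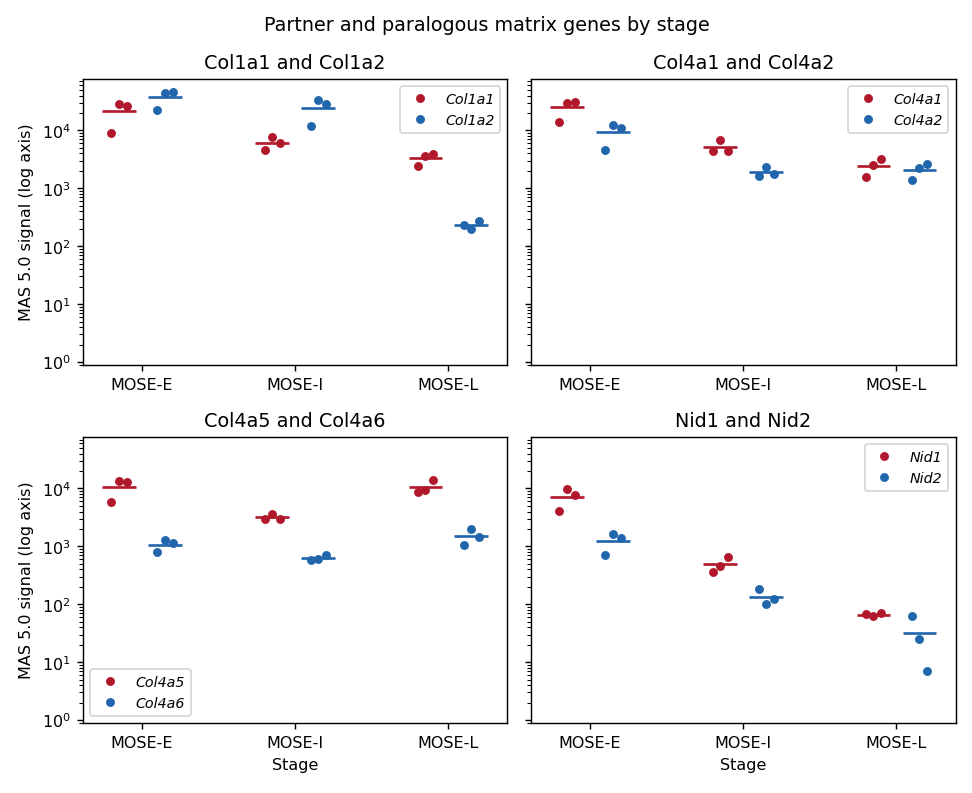
MAS 5.0 signals (log axis) of 4 gene pairs by stage, with a point for each of the 3 arrays and a line at their mean. Col1a1 and Col1a2 separate at MOSE-L, Col4a5 and Col4a6 have their lowest signals at MOSE-I, and Nid1 and Nid2 step down at each stage. Levels of different probe sets cannot be set against each other, so that only the course over the stages can be read within a panel.

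Laminins are trimers of an alpha, a beta and a gamma chain. Lamc1, the gamma chain of most laminins, gave signals of 1559, 3646 and 3252 on the MOSE-E arrays, 709, 639 and 591 on the MOSE-I arrays and 686, 946 and 1933 on the MOSE-L arrays. The MOSE-I arrays were all low, and MOSE-L replicate 3 lay above the lowest MOSE-E array. The changes were -1.96 on the log2 scale (SE 0.38, adjusted p = 0.0139) at MOSE-I and -1.25 on the log2 scale (SE 0.38, adjusted p = 0.0336) at MOSE-L. The second Lamc1 probe set was called at MOSE-L (-1.63) and not at MOSE-I (-1.18, adjusted p = 0.149). Lamb1, a beta chain, gave signals of 2833, 9444 and 9426 on the MOSE-E arrays, 1713, 1915 and 2119 on the MOSE-I arrays and 1706, 4872 and 4152 on the MOSE-L arrays. It was called lower at MOSE-I (log2 change -1.70, SE 0.48, adjusted p = 0.0489) and not at MOSE-L (log2 change -0.95, SE 0.48, adjusted p = 0.164), where 2 of 3 arrays lay above MOSE-E replicate 1.

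Lamb2, the beta chain that replaces Lamb1 in mature and synaptic basement membranes, gave signals of 170.5, 517 and 479 on the MOSE-E arrays, 150.4, 308 and 255 on the MOSE-I arrays and 424, 1252 and 1084 on the MOSE-L arrays. MOSE-L arrays lay above all MOSE-I arrays, and the rise between these stages was 1.67 on the log2 scale (SE 0.45, adjusted p = 0.0233). Against MOSE-E the MOSE-L change was 1.13 on the log2 scale (SE 0.45, adjusted p = 0.0854), not called. Lama5, the alpha chain of epithelial laminins, averaged 2022 ± 964, 694 ± 182 and 1102 ± 364 and was not called, with -1.37 on the log2 scale (SE 0.40, adjusted p = 0.0543) at MOSE-I. Hspg2 (perlecan) averaged 2101 ± 554, 1501 ± 317 and 1535 ± 456 and was not called on its brightest probe set. Its second probe set was called lower at MOSE-I (-2.34) and higher from MOSE-I to MOSE-L (2.10), so the Hspg2 result depends on the probe set.

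Of the 11 elastic fibre and cross-linking genes 4 were measured, and 3 of them were called lower at MOSE-L, against 7.43% of all genes. Fbln5, fibulin 5, which guides elastic fibre assembly, gave signals of 3537, 6255 and 7400.2 on the MOSE-E arrays, 916, 2184 and 1390.4 on the MOSE-I arrays and 1143, 425 and 775 on the MOSE-L arrays. All later arrays lay under all MOSE-E arrays, and the changes were -1.92 on the log2 scale (SE 0.40, adjusted p = 0.0184) at MOSE-I and -2.83 on the log2 scale (SE 0.40, adjusted p = 0.000941) at MOSE-L. Fbln2, fibulin 2, a ligand of nidogen and fibronectin, gave signals of 5655, 12822 and 11546 on the MOSE-E arrays, 2206, 4889.8 and 4019.5 on the MOSE-I arrays and 1556, 3462 and 2539 on the MOSE-L arrays. Here too no later array reached the MOSE-E signals (log2 change -1.41, SE 0.40, adjusted p = 0.049 at MOSE-I, log2 change -1.96, SE 0.40, adjusted p = 0.00603 at MOSE-L), but its second probe set was not called in either comparison.

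Lox and Loxl1 are both lysyl oxidases, copper enzymes that cross-link collagen and elastin, and they moved in opposite directions between the intermediate and late stage. Lox gave signals of 17883, 27425 and 30461 on the MOSE-E arrays, 17789, 16097 and 13816 on the MOSE-I arrays and 5559, 6594 and 12600.0 on the MOSE-L arrays. The MOSE-L arrays were the lowest, with -1.67 on the log2 scale (SE 0.30, adjusted p = 0.00338) against MOSE-E and -1.03 on the log2 scale (SE 0.30, adjusted p = 0.0304) against MOSE-I. The call of Lox against MOSE-I was lost in 11 of 23 alternative settings, among them quantile normalization and the methods' t-test. Its second probe set was also called there (-1.13). Loxl1 gave signals of 2948, 4545 and 4659 on the MOSE-E arrays, 2898, 2128 and 1639 on the MOSE-I arrays and 7777, 7328 and 7816 on the MOSE-L arrays. Every MOSE-L array lay above every other array, and the rise from MOSE-I was 1.80 on the log2 scale (SE 0.24, adjusted p = 0.00103). Against MOSE-E the Loxl1 change was 0.94 on the log2 scale (SE 0.24, adjusted p = 0.018), which passed the adjusted p but missed the minimum of 1.

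In the adhesive and matricellular group 5 of 9 genes were measured, and 2 were called lower at MOSE-L, against 7.43% of all genes. Tnc, tenascin C, an anti-adhesive glycoprotein of wounds and tumour stroma, gave signals of 2536, 8878 and 9306 on the MOSE-E arrays, 598, 1506 and 1309.8 on the MOSE-I arrays and 149, 157 and 285 on the MOSE-L arrays. The stages were separate and each was lower than the one before, with changes of -2.43 on the log2 scale (SE 0.49, adjusted p = 0.0163) to MOSE-I, -2.21 on the log2 scale (SE 0.49, adjusted p = 0.0116) from MOSE-I to MOSE-L and -4.65 on the log2 scale (SE 0.49, adjusted p = 0.000173) from MOSE-E to MOSE-L. Thbs1, thrombospondin 1, which activates latent TGF-beta, gave signals of 4138, 12986 and 11878 on the MOSE-E arrays, 2674, 1819 and 1870.0 on the MOSE-I arrays and 887, 3523 and 1085 on the MOSE-L arrays. No later array reached the MOSE-E arrays (log2 change -2.02, SE 0.52, adjusted p = 0.038 at MOSE-I, log2 change -2.47, SE 0.52, adjusted p = 0.00743 at MOSE-L), and MOSE-L replicate 2 stood above the other late arrays.

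Mgp, matrix Gla protein, an inhibitor of calcification, was the 1 member that rose at the intermediate stage. It gave signals of 2211, 355 and 579 on the MOSE-E arrays, 4844, 17842 and 23408 on the MOSE-I arrays and 1968, 1315 and 1473 on the MOSE-L arrays. The MOSE-I arrays lay above all others, and MOSE-E replicate 1 stood above the other MOSE-E arrays. The rise to MOSE-I was 3.93 on the log2 scale (SE 0.65, adjusted p = 0.00798), lost without MOSE-E replicate 3, and the fall to MOSE-L was -2.98 on the log2 scale (SE 0.65, adjusted p = 0.011), which left no call against MOSE-E (log2 change 0.96, SE 0.65, adjusted p = 0.297).

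Fn1, fibronectin, the main cell-adhesive glycoprotein of the matrix, averaged 25220.1 ± 11533, 9774 ± 2959 and 19769.5 ± 7729 at the early, intermediate and late stage and was not called on its brightest probe set (log2 change -0.30, SE 0.42, adjusted p = 0.629 at MOSE-L). The second Fn1 probe set was called lower in both later stages (-1.72 at MOSE-L and -2.32 at MOSE-I), so its result rests on the probe set chosen. Sparc, a collagen-binding glycoprotein, gave signals of 29845, 45482 and 46328 on the MOSE-E arrays, 22631, 44212 and 38678 on the MOSE-I arrays and 37445, 30299 and 42045 on the MOSE-L arrays. It was bright on every array, with overlapping stages and changes of -0.13 on the log2 scale (SE 0.27, adjusted p = 0.74) at MOSE-L and -0.23 on the log2 scale (SE 0.27, adjusted p = 0.592) at MOSE-I. Over the 22 members with several tested probe sets, the number with the same call in all of them was 20 from MOSE-E to MOSE-L, 14 from MOSE-E to MOSE-I and 19 from MOSE-I to MOSE-L.

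The offset between partner genes of 1 molecule or network was followed over the stages. On each array the log2(signal + 50) of 1 partner was subtracted from that of the other in 7 pairs, which were chosen after their values were seen. Col1a2 minus Col1a1 was 0.89 ± 0.35 at the early, 1.89 ± 0.47 at the intermediate and -3.55 ± 0.40 at the late stage (SD, n = 3). Col4a2 minus Col4a1 was -1.46 ± 0.17, -1.41 ± 0.14 and -0.21 ± 0.07, with no overlap of MOSE-L with either other stage. A 2-sided exact permutation test of 3 arrays against 3 cannot give a p under 0.1, the value it gave for MOSE-L against MOSE-E in these pairs. In 4 other pairs the MOSE-L and MOSE-E arrays overlapped, with exact permutation p = 0.2 for Col5a1 minus Col5a2, 0.4 for Col4a6 minus Col4a5, 0.2 for Col6a2 minus Col6a1 and 0.7 for Lamc1 minus Lamb1. The remaining pair, Nid2 and Nid1, is not read, because both lay near the added 50 at MOSE-L, which draws their difference toward 0.

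MOSE-E replicate 1, of passage 13, stood apart from the other MOSE-E arrays in the matrix genes. There 22 of the 30 lay at least 1 log2 unit below the mean of the other 2 MOSE-E arrays, against 2.44% of all genes, with a median offset of -1.14 for the 30 and 0.03 for all genes. MOSE-I replicate 1 had 6 of 30 such genes against 4.35% of all genes and MOSE-L replicate 1 had 4 of 30 against 4.01%, with medians of -0.56 and -0.40, so that replicate 1 had the lowest median offset of the matrix genes in every stage. The summed signal of the 30 genes was 197607 on MOSE-E replicate 1, 428184 and 422671 on the other MOSE-E arrays, 116914 to 218494 on the MOSE-I and 129098 to 168308 on the MOSE-L arrays. The summed smooth muscle markers were also lowest on that MOSE-E array (33109 against 73363 and 94258), while the summed surface epithelium markers were close (73042 against 77283 and 77124). Their part in the offset was not tested. Without this array 19 genes were called lower at MOSE-L and 20 at MOSE-I, and the genes added at MOSE-L were Col3a1, Lama5 and Lamb1. The share of all genes called in that fit is not given, so these counts have no background to be read against.

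**Figure D4:**
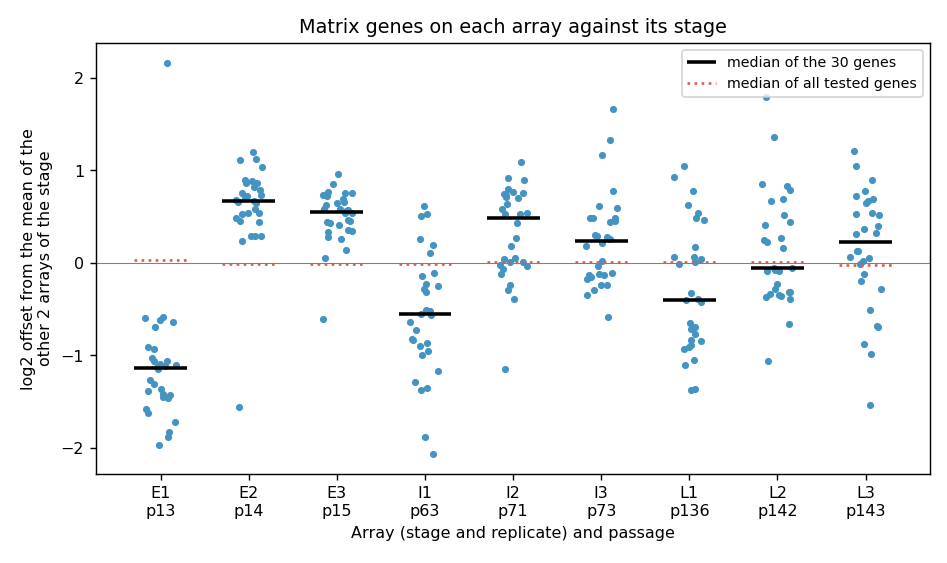
Offset of each of the 30 measured matrix genes (points) on each array from the mean of the other 2 arrays of its stage, on the scale log2(signal + 50), with the median of the 30 (solid line) and of all 7952 genes (dotted line). On MOSE-E replicate 1 the median is -1.14 for the matrix genes and 0.03 for all genes.

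The remaining listed genes were not tested. No probe set naming the gene alone was used for Fbn1, Loxl2 and Spp1. Another 13, with 26 probe sets, stayed under 500 on every array: Col6a3, Col15a1, Col18a1, Lama1, Lama4, Eln, Fbn2, Fbln1, Emilin1, Mfap5, Postn, Thbs2 and Tgfbi, with highest signals from 83.3 (Lama1) to 469 (Col6a3). These include elastin itself (Eln) and the 2 collagens that release anti-angiogenic fragments (Col15a1 and Col18a1). In a fit with no filter 2 of the 13 were called. Postn, periostin, had signals of 113, 332 and 410.0 on the MOSE-E arrays, 59.3, 4.96 and 25.6 on the MOSE-I and 5.62, 7.04 and 8.51 on the MOSE-L arrays, and was lower in both later stages (log2 changes -2.42 at MOSE-L and -1.99 at MOSE-I, adjusted p = 0.00223 and 0.0214). Emilin1, an elastic fibre glycoprotein, had 11.1, 38.2 and 5.76, 251, 154 and 234 and 253, 255 and 407 on its brighter probe set and was higher in both (2.38 and 1.95, adjusted p = 0.000255 and 0.00489).

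Genes that serve the same matrix were read from 6 further lists of 115 genes, of which 49 were measured. Of these, 11 were called lower and 6 higher in MOSE-L than MOSE-E cells, against 7.43% and 8.11% of all genes. Between MOSE-I and MOSE-E cells 9 were lower and 0 higher (4 were higher at an unadjusted p under 0.05), against 3.51% and 2.28%, and between MOSE-L and MOSE-I cells 4 were lower and 8 higher, against 5.95% and 7.33%. Of the genes named below, P3h2 and Emilin2 passed the filter through MOSE-L arrays alone and so had to be higher there, and Col4a4 passed through a single MOSE-E array, which favours a lower value in the later stages. The median change of the 49 was -0.16 at MOSE-L, -0.61 at MOSE-I and 0.43 from MOSE-I to MOSE-L.

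Collagen folding and processing had 20 measured genes out of 27, most without a call at MOSE-L. Higher there were P3h2, a prolyl 3-hydroxylase of collagen IV (log2 change 2.15, SE 0.32, adjusted p = 0.00113), and Pcolce, which enhances removal of the C-propeptide (log2 change 1.11, SE 0.30, adjusted p = 0.0207), and lower was Creb3l1, a transcription factor that drives collagen I genes (log2 change -2.25, SE 0.32, adjusted p = 0.000947). Creb3l1 signals averaged 1262 ± 415, 858 ± 284 and 224 ± 91.9 at the early, intermediate and late stage (mean ± SD, n = 3). At MOSE-I Bmp1, the C-proteinase (log2 change -1.09, SE 0.29, adjusted p = 0.0428), and Sec23a, a coat protein of procollagen export (log2 change -1.06, SE 0.19, adjusted p = 0.00951), were lower, a pair named after their values were seen.

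Among further collagens, of which 3 of 24 were measured, Col4a4 (log2 change -2.30, SE 0.56, adjusted p = 0.0136) and Col27a1 (log2 change -2.27, SE 0.54, adjusted p = 0.0123) were called lower at MOSE-L. Further basement membrane genes (5 of 18 measured) fell in 3 cases: Tinagl1, a glycoprotein of basement membranes (log2 change -1.79, SE 0.34, adjusted p = 0.00457), Npnt, the integrin ligand nephronectin (log2 change -1.65, SE 0.31, adjusted p = 0.00404), and Pxdn, peroxidasin, which cross-links collagen IV (log2 change -1.33, SE 0.37, adjusted p = 0.0235). Of 16 further elastic fibre genes 7 were measured, where Emilin2 was higher (log2 change 2.38, SE 0.47, adjusted p = 0.00523) and Efemp1, fibulin 3, lower (log2 change -1.83, SE 0.31, adjusted p = 0.00233).

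Further matricellular genes, 8 of 20 measured, split in 2 directions. Ccn2 averaged 33636 ± 13712, 2922 ± 1943 and 5338 ± 2271 and Ccn1 22928 ± 13550.0, 3319 ± 953 and 3518 ± 809 at the early, intermediate and late stage, and both of these CCN family genes were lower at MOSE-L (log2 change -2.62, SE 0.47, adjusted p = 0.00338 for Ccn2, log2 change -2.47, SE 0.46, adjusted p = 0.00405 for Ccn1). Igfbp7 (log2 change 1.82, SE 0.28, adjusted p = 0.00155) and Ecm1 (log2 change 1.09, SE 0.27, adjusted p = 0.0139) were higher. At MOSE-I, however, Igfbp7 was called lower than at MOSE-E (log2 change -1.78, SE 0.28, adjusted p = 0.00693), with mean signals of 5335, 1480 and 18604 at the early, intermediate and late stage. Of the 10 matrix receptors other than integrins 6 were measured: the collagen receptor Ddr2 (log2 change -2.51, SE 0.42, adjusted p = 0.00237) and the hyaluronan receptor Cd44 (log2 change -1.38, SE 0.30, adjusted p = 0.00814) were lower at MOSE-L, and the thrombospondin receptor Cd47 (log2 change 1.38, SE 0.25, adjusted p = 0.00348) was higher.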

How the data were processed

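Total RNA of 9 MOSE cultures was hybridised to Affymetrix Mouse Genome 430 2.0 arrays. The deposited values are linear intensities: the authors ran MAS 5.0 and brought every array to a trimmed mean of 500. Detection calls were not used here, and the number of arrays limits the precision. After 64 control probe sets were removed, 13845 probe sets with a highest signal over 500 were fitted as log2(signal + 50), with a mean for each stage and trended, robust empirical Bayes variances (6 residual degrees of freedom), in limma (version 3.58.1, R 4.3.3). Benjamini-Hochberg adjustment covered all 13845. Of all signals 32.4% were below the added 50, so that folds of dim genes are understated. Where several probe sets past the filter named 1 gene and no other, the one of highest mean signal stood for it, and names were updated by gene ID from a GRCm38.p6 table (34754 of 34958 matched). The replicate numbers were not used as a block. The members and lists were chosen with earlier results of these data known. Signals on every array are given for genes called between MOSE-I and MOSE-E, for the largest called changes of each group at MOSE-L (up to 4) and for called genes that moved against their group. Col3a1 and Sparc were added after their values were seen. Of each further list up to 4 genes called at MOSE-L are named. The procedure was tested on simulated data. Alternatives covered the added value, normalization, filter, variance model, arrays in the fit, thresholds, choice of probe set, a replicate block, the methods' t-test and leaving out arrays. Protein sequences were not used here.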

Additional observations from a re-analysis of the deposited data

How the results depend on the processing

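None of the called changes of a member reversed under any alternative. The shares of all genes called under the alternatives are not given, so the counts below have no background to be read against. Under an adjusted p of 0.01, 6 members were lower in MOSE-I than MOSE-E, and 2 lower and 2 higher in MOSE-L than MOSE-I cells. The methods' t-test, equal-variance on the signals with an unadjusted p of at most 0.05 and a fold over 2, gave 13 lower (MOSE-L against MOSE-E), 10 lower and 0 higher (MOSE-I against MOSE-E) and 5 lower and 3 higher (MOSE-L against MOSE-I), and after Benjamini-Hochberg adjustment 0 in every comparison and direction. Members higher in MOSE-L than MOSE-E numbered 1 with no filter (Emilin1), with no minimum fold (Loxl1), with the replicate block (Lamb2) and by the median over probe sets, and with no filter 2 were higher in MOSE-I than MOSE-E. When each array in turn was left out, there were 14 to 19 lower and 0 to 1 higher members in MOSE-L against MOSE-E, 3 to 20 lower and 0 to 1 higher in MOSE-I against MOSE-E, and 4 to 8 lower and 2 to 5 higher in MOSE-L against MOSE-I. With the replicate block 16, 18 and 6 members were lower and 1, 1 and 4 higher in these 3 comparisons. The deviations of same-numbered arrays correlated at -0.11 to 0.41, not over 0.1 in every pair, so the numbers were not taken to pair the arrays. Quantile normalization and median centring each left 16 members lower in MOSE-L than MOSE-E cells. Signals near the added 50, as for Col11a1, Col8a1 and Nid2 after MOSE-E and Nid1 at MOSE-L, limit the size of their changes: with 1 added in place of 50 the Nid2 change at MOSE-L was -5.64 and with 200 added it was -2.59. The cause of the changed counts was not tested.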
